A study of Sorghum bicolor with 9 samples.

Results

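Leaves of sorghum (Sorghum bicolor), a drought-hardy C4 cereal, were compared between severe drought and normal water supply (control), with 3 libraries per group. The comparison covered 34366 genes, those of the 44775 entries of the gene count table that were also listed in the deposited mRNA table, and all 11928 transcripts of the lncRNA table, which holds long RNAs that are not predicted to encode a protein. Total RNA was sequenced in strand-specific libraries, and 3 libraries of mild drought from the same series entered the model and are used here as a reference. The labels describe the groups by tissue and water supply alone, and name no cultivar, plant age, or length and intensity of the shortage. Whether replicate libraries stem from different plants is not stated, so p-values measure only the spread between these libraries, which may be technical.

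When soil dries, plants make the hormone abscisic acid, which closes the stomata and reprograms transcription. Its receptors (the PYL family) bind the hormone and then block type 2C protein phosphatases, which frees SnRK2 kinases (named SAPK in rice) to activate bZIP and other transcription factors. Cells also accumulate compatible solutes such as proline and raffinose, and protective proteins such as dehydrins. In a C4 leaf, phosphoenolpyruvate carboxylase fixes carbon in the mesophyll and malic enzyme releases it again in the bundle sheath. Protein names are those of the best Swiss-Prot match in the deposited description, mostly from rice, Arabidopsis and maize, and roles given here are known from those and other species.

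Levels are given as CPM (counts divided by the library size after TMM scaling and multiplied by 1e6) in libraries 1, 2 and 3 of a group in that order, differences as log2 values ± SE, and positions as the deposited tables list them; the sources used here name no build for these. The gene table held 33399928 to 41228478 counts per control library and 27854146 to 35915894 per severe drought library. On the 34366 genes fell 20772692 counts in severe drought 3 and at most 36431806, in control 3. In severe drought 3 a single assembled entry outside the mRNA table, XLOC_003452, took 17.22% of the gene table, against 3.334 to 10.002% in the other 5 libraries. Severe drought 1 stood apart in another way, since 61 genes had no count there and at least 5 CPM in each of the 8 other libraries of the series, against 0 or 1 such gene for each of the other libraries. The largest principal component of the 6 libraries (32.11% of the variance) did not separate the groups, with severe drought 3 at -33.58 and control 3 at 29.88. The second component (23.33%) did, with the controls at -60.28 to -29.17 and severe drought at -9.93 to 104.22. Control 2 had counts on 29760 genes and the other 5 libraries on 22567 to 24620. Correlations of log2 CPM had a median of 0.916 within groups (6 pairs) and 0.904 between them (9 pairs). Mesophyll markers of a C4 leaf summed to 36131 to 96206 CPM and bundle sheath markers to 4557 to 6941 CPM. Every severe drought library (at least 52120 CPM) exceeded every control (at most 45201 CPM) in the summed mesophyll markers. The mean level of that list, in which each member counts equally, overlapped between the groups. The part of these markers in the results below was not tested. Of 35 seed storage markers 23 had no count in any of the 6 libraries. Root markers, mostly relatives of Casparian strip proteins, of which some occur outside roots, summed to 706.9 to 1026 CPM, with 9 of 47 at 0. Their mean level was higher in each severe drought library (0.0416 to 0.125 on the log2 scale relative to the mean of the 6 libraries) than in each control library (-0.115 to -0.04); its part in the results below was not tested.

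Of 22080 genes with enough counts, the main test (edgeR, quasi-likelihood F test, Benjamini-Hochberg adjusted p under 0.05) called 0 genes, which is 0.0% of them, and the lowest adjusted p was 0.214. At an unadjusted p under 0.05 there were 1914 genes (8.67%), of which 887 were higher (4.02%) and 1027 lower (4.65%) in severe drought. DESeq2, the alternative test, called 154 genes higher (0.697% of those tested by edgeR) and 157 lower (0.711%) among them, and 314 genes in all, 154 higher (0.685%) and 160 lower (0.712%) of the 22472 genes to which it gave an adjusted p. When the 6 libraries were fitted without mild drought, edgeR called 2 genes, both higher. Below, "rose" and "fell" stand only for genes that DESeq2 called at an adjusted p under 0.05, and no edgeR call is implied. Groups are said not to overlap where all 3 severe drought libraries lay above, or all 3 below, all 3 control libraries. That held for 1688 genes higher (7.64%) and 2169 lower (9.82%), and each list of genes is set against these shares. With 3 libraries against 3, an exact permutation test of a single gene cannot give a two-sided p below 0.1.

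**Figure D1:**
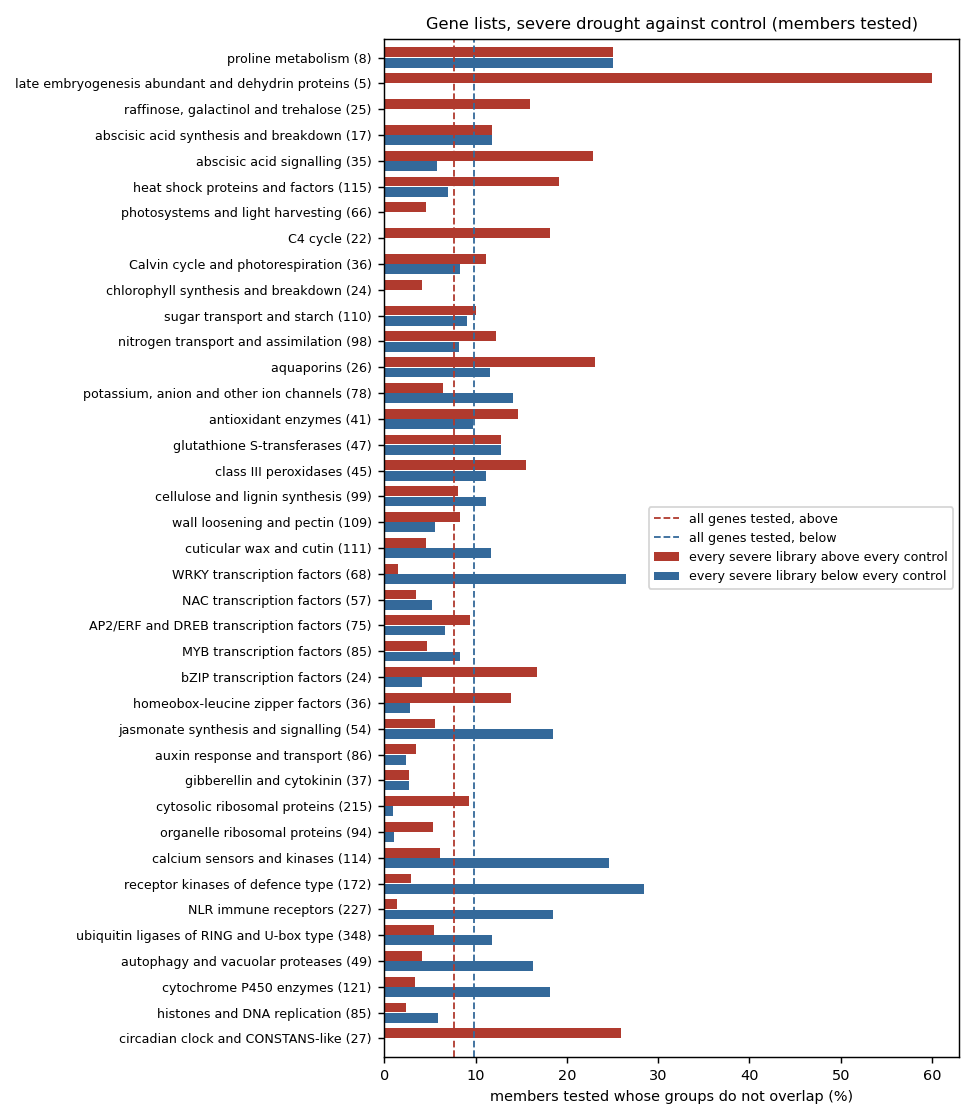
Share of tested members (%, horizontal axis) of each gene list (number of tested members in brackets) whose 3 severe drought libraries all lay above (red) or all below (blue) the 3 control libraries, with the shares over all 22080 genes as dashed lines. Receptor kinases of defence type (28.5% lower), WRKY factors (26.5%), calcium sensors and kinases (24.6%) and NLR immune receptors (18.5%) lie to the right of the blue dashed line at 9.82%.

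Of the genes named here, P5CS2 of proline synthesis had the lowest DESeq2 adjusted p. P5CS2 (SORBI_3003G356000, chromosome 3, 67427644 to 67434548), the pyrroline-5-carboxylate synthase matched to rice, makes the precursor of proline from glutamate. Its level was 17.1, 15.8 and 16.7 CPM in the control libraries and 158, 239 and 263 CPM in severe drought. The controls lay within a narrow band, and each severe drought library stood far above it. P5CS2 rose 13.3-fold (log2 3.73 ± 0.46; DESeq2 adjusted p = 8.68e-13; edgeR adjusted p = 0.214, and 0.0307 to 0.685 over the edgeR settings tried, the lowest with the 6 libraries alone). The other gene of the pair, P5CS1 (SORBI_3009G160100), stood at 36.2, 32.1 and 33.9 CPM in the controls and 51.5, 84.3 and 56.9 CPM in severe drought, without overlap but with a DESeq2 adjusted p of 0.103 (edgeR 0.288 to 0.949). Proline dehydrogenase 2 (SORBI_3001G304700, chromosome 1, 58850919 to 58854469), a mitochondrial enzyme that degrades proline, showed the opposite order. It had 85.2, 108 and 55.4 CPM in the controls and 22.1, 33.7 and 23.4 CPM in severe drought, so that the lowest control exceeded the highest severe drought library, and it did not pass (DESeq2 adjusted p = 0.0874, edgeR 0.235 to 0.949). Of 8 tested genes of proline metabolism, 2 were higher (against 7.64% of all genes) and 2 lower (against 9.82%) without overlap. Of the 8, 5 had a difference below 0, and the median log2 difference was -0.29. The mean level of this list overlapped between the groups.

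Among dehydrins and late embryogenesis abundant proteins, which protect drying cells, DESeq2 called a single gene. Dehydrin DHN1 (SORBI_3009G116700, chromosome 9, 45915615 to 45916682), a hydrophilic protein that shields membranes and proteins, had 0.159, 0.608 and 1.28 CPM in the controls and 16.2, 54.002 and 17.6 CPM in severe drought. It rose 42.9-fold (log2 5.41 ± 0.85; DESeq2 adjusted p = 3e-10; edgeR 0.143 to 0.752), with severe drought 2 well above both others. Without severe drought 2 its log2 difference was 4.62, and without control 3, the highest control, 6.29. The late embryogenesis abundant protein 31 (SORBI_3007G109800) had 0.795, 0.203 and 1.25 CPM and then 2.72, 5.87 and 3.75 CPM, and protein D-34 (SORBI_3004G142500) 0.05298, 0.203 and 0.575 CPM and then 1.09, 1.63 and 1.53 CPM. Neither passed, though in both every severe drought library was above every control. Both other tested genes of the list, named after their values were seen, were far more abundant and overlapped between the groups. Protein At5g17165 (SORBI_3006G201400) had 109, 89.9 and 258 CPM and then 163, 92.3 and 118 CPM (log2 -0.29 ± 0.54, and 0.33 without control 3). Lea14-A (SORBI_3009G247900) had 46.5, 42.5 and 51.9 CPM and then 36.98, 49.7 and 47.7 CPM (log2 -0.07 ± 0.33, with its sign changed without control 3 or severe drought 1). Of 16 genes in this list 5 passed the filter on low counts. Of these 5, 3 were higher (against 7.64% of all genes) and 0 lower (against 9.82%) without overlap, and 2 had a difference below 0. The summed level of the 5 overlapped, with 157, 133 and 313 CPM in the controls and 220.3, 203 and 189 CPM in severe drought. A gene that is silent in the control can pass the filter only through its level under drought.

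Among 25 tested genes of raffinose, galactinol and trehalose metabolism 4 were higher (16.0%, against 7.64% of all genes) and 0 lower (0.0%, against 9.82%) without overlap. The median log2 difference was 0.20, against -0.02 over all genes. A probable galactinol-sucrose galactosyltransferase (SORBI_3002G075800, chromosome 2, 7874437 to 7878146), which builds raffinose, had 283, 406 and 88.7 CPM in the controls and 845, 722 and 3339 CPM in severe drought. It rose 6.31-fold by DESeq2, with severe drought 3 far above the other drought libraries. Without severe drought 3 its log2 difference was 1.60, against 2.66 with all libraries. Probable trehalose-phosphate phosphatase 9 (SORBI_3001G353300), the last step of trehalose synthesis, rose from 9.48, 8.92 and 9.95 CPM to 17.8, 14.5 and 21.5 CPM. Phosphomethylethanolamine N-methyltransferase (SORBI_3003G266600), which acts in the synthesis of phosphocholine in Arabidopsis, rose from 18.1, 12.6 and 18.7 CPM to 41.5, 32.1 and 38.6 CPM.

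**Figure D2:**
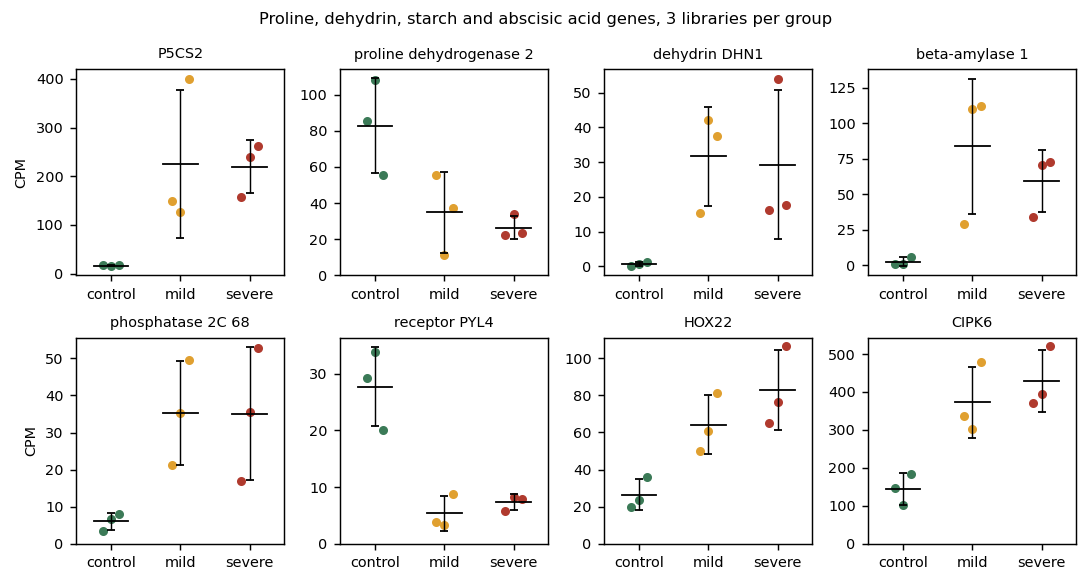
CPM (vertical axes, each from 0) of 8 genes of proline, dehydrin, starch and abscisic acid pathways in the control, mild and severe drought libraries, with points for libraries, long bars for means and error bars for SD (n = 3). In P5CS2 the controls lie at 15.8 to 17.1 CPM and severe drought at 158 to 263 CPM, and PYL4 and proline dehydrogenase 2 run the other way.

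In abscisic acid signalling, of 35 tested receptors, phosphatases, kinases and response factors, 8 were higher (22.9%, against 7.64% of all genes) and 2 lower (5.71%, against 9.82%) without overlap. DESeq2 called 3 higher and 1 lower. The 3 were probable protein phosphatases 2C, which hold back the signal when the hormone is absent. Phosphatase 2C 68 (SORBI_3002G172000, chromosome 2, 54480172 to 54484180) rose from 3.497, 6.66 and 7.97 CPM to 16.9, 35.6 and 52.8 CPM (log2 2.54 ± 0.50; DESeq2 adjusted p = 0.000193; edgeR 0.103 to 0.934). Phosphatase 2C 37 (SORBI_3006G018400) rose 9.99-fold, from 0.662, 1.05 and 3.004 CPM to 11.4, 12.2 and 23.6 CPM, and phosphatase 2C 30 (SORBI_3001G424400) 6.88-fold, from 4.0001, 5.68 and 9.82 CPM to 16.4, 41.7 and 76.1 CPM. In all 3 the lowest severe drought library was above the highest control. Phosphatase 2C 37 had a log2 difference of 3.31, and of 4.20 without control 3, and phosphatase 2C 30 of 2.78, and of 2.16 without severe drought 3. Protein phosphatase 2C 50 (SORBI_3009G213000) was more abundant and differed less, with 90.7, 65.3 and 98.4 CPM and 128, 155 and 208 CPM, and did not pass.

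By contrast, DESeq2 called PYL4 (SORBI_3001G403300, chromosome 1, 68842276 to 68843883), a receptor of the hormone, lower: it fell from 29.2, 33.9 and 20.2 CPM in the controls to 5.71, 8.29 and 7.99 CPM in severe drought (log2 -1.92 ± 0.40; DESeq2 adjusted p = 0.00222; edgeR 0.215 to 0.934). PYL10 (SORBI_3001G289100) was lower without overlap, with 16.8, 19.1 and 19.4 CPM and 9.18, 13.9 and 9.96 CPM, and did not pass. Among the SnRK2 kinases, SAPK3 (SORBI_3001G294400) had 1.56, 3.68 and 1.67 CPM in the controls and 4.96, 5.82 and 10.8 CPM in severe drought, and did not pass. In the list of the hormone's synthesis and breakdown, 2 of 17 tested genes were higher (11.8%, against 7.64% of all genes) and 2 lower (11.8%, against 9.82%) without overlap. 9-cis-epoxycarotenoid dioxygenase makes the committed step of synthesis. The gene matched to the maize enzyme 1 (SORBI_3001G155300, chromosome 1, 12561395 to 12563230) stood at 1.64, 2.298 and 4.34 CPM and then 6.59, 10.8 and 9.86 CPM, without overlap (DESeq2 adjusted p = 0.0679, edgeR 0.305 to 0.949). The far more abundant gene matched to rice NCED1 (SORBI_3004G268500) had 1403, 1861 and 366 CPM and 788, 1403 and 1809.6 CPM, with overlapping groups and a log2 difference of 0.14 ± 0.95 whose sign changed with the libraries used. Beta-glucosidase 18 (SORBI_3006G146100), of a family that can release the hormone from its glucose ester, fell from 109.9, 369 and 19.4 CPM to 9.96, 5.68 and 18.5 CPM, though control 3 was only just above severe drought 3. Control 2 held most of the control level: without it the log2 difference was -2.51, against -3.87 with all libraries.

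HOX22 (SORBI_3006G163900, chromosome 6, 52167161 to 52168720), a homeobox-leucine zipper factor of the group that responds to drought in rice, rose from 19.9, 23.6 and 36.1 CPM to 64.9, 76.5 and 107 CPM (log2 1.64 ± 0.30). HOX24 (SORBI_3004G300300) rose from 6.99, 6.56 and 7.31 CPM to 16.7, 19.01 and 100.2 CPM, where severe drought 3 held most of the mean, and without that library the log2 difference was 1.36 in place of 2.70. Over the 36 tested genes of this family 5 were higher (13.9%, against 7.64% of all genes) and 1 lower (2.78%, against 9.82%) without overlap. The bZIP factor 53 (SORBI_3004G031100), which in Arabidopsis acts in amino acid and proline metabolism at low energy, had 0.132, 0.169 and 0.131 CPM in the controls and 0.204, 19.1 and 15.4 CPM in severe drought. DESeq2 called it higher (adjusted p = 0.000669; edgeR 0.406 to 0.949), while severe drought 1 was hardly above the controls. The bZIP factor RISBZ3 (SORBI_3007G109900) fell, from 13.1, 9.84 and 16.4 CPM to 5.91, 4.1002 and 3.89 CPM. CBL-interacting protein kinase 6 (SORBI_3007G140900, chromosome 7, 56993382 to 56998511), which relays calcium signals, rose from 147, 102 and 184 CPM to 370.0, 395 and 522 CPM.

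MYB20 and NAC43, which promote secondary wall formation in Arabidopsis, were nearly silent in the controls. MYB20 (SORBI_3004G248700) had 0, 0 and 0.157 CPM there and 1.02, 3.03 and 6.36 CPM in severe drought, and NAC43 (SORBI_3010G022400) 0.715, 0.946 and 0.104 CPM and 2.07, 8.06 and 3.205 CPM. Both rose by DESeq2. Laccase-10 (SORBI_3001G422300, chromosome 1, 70308577 to 70311856), of a family that polymerises lignin, rose 28.1-fold, from 0.5298, 0.811 and 0.4702 CPM to 9.89, 32.99 and 7.94 CPM, with severe drought 2 highest in each of the genes NAC43 and laccase-10. Without severe drought 2 the log2 difference of laccase-10 was 3.88 in place of 4.81, and that of NAC43 2.16 in place of 2.91. For MYB20, 5.89 with all libraries became 5.13 without severe drought 3 and 9.69 without control 3, where the fitted value depends on the prior count because the controls left had no count. In contrast COBRA-like protein 1 (SORBI_3002G368100), of a family that orders cellulose, fell from 17.8, 13.9 and 16.6 CPM to 4.59, 6.896 and 5.47 CPM, and cellulose synthase-like protein E2 (SORBI_3004G255200) from 17.1, 19.9 and 10.997 CPM to 4.66, 3.77 and 6.31 CPM. Of 99 tested genes of cellulose and lignin synthesis 8 were higher and 11 lower without overlap, near the shares of all genes. Pectinesterase inhibitor 10 (SORBI_3001G198700), which restrains a pectin-modifying enzyme, had 8.11, 8.65 and 6.896 CPM and then 83.5, 67.1 and 52.7 CPM. It was the other gene that edgeR called with the 6 libraries alone (adjusted p = 0.0379; edgeR 0.0379 to 0.949 over the settings), it rose by DESeq2 (adjusted p = 0.0349), and it is named after its values were seen.

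Beta-amylase 1 (SORBI_3001G226600, chromosome 1, 21690596 to 21694416), a plastid enzyme that releases maltose from starch, had 0.901, 0.473 and 6.03 CPM in the controls and 33.9, 70.4 and 72.9 CPM in severe drought. Control 3 lay above the other controls, and all severe drought libraries lay above it (23.9-fold, log2 4.57 ± 0.98; edgeR adjusted p = 0.306); DESeq2 gave no adjusted p for this gene. Without control 3 the log2 difference was 6.40. Beta-amylase 2 (SORBI_3001G508800) had 54.5, 60.3 and 39.7 CPM and 86.8, 140.5 and 98.2 CPM and did not pass. Isoamylase 3 (SORBI_3002G233600), a debranching enzyme of starch breakdown, rose from 34.7, 26.9 and 29.2 CPM to 57.01, 50.6 and 47.8 CPM. SWEET13 (SORBI_3008G094400, chromosome 8, 44672607 to 44674991), which exports sucrose from leaf cells for phloem loading, fell from 73.6, 71.996 and 88.9 CPM to 36.03, 48.3 and 41.7 CPM. SWEET16 (SORBI_3001G377600), a vacuolar sugar transporter in Arabidopsis, had no count in the controls and 3, 5 and 14 counts in severe drought, at least 10.9-fold higher against a floor of 3 counts over the control group. Its fitted log2 difference, which depends on the prior count, was 6.39, and 5.44 without severe drought 3. Across the 110 tested genes of sugar transport and starch 11 were higher and 10 lower without overlap, close to the shares of all genes.

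Enzymes of the C4 cycle stood at high levels in all libraries. Of 22 tested genes, 4 were higher (18.2%, against 7.64% of all genes) and 0 lower (0.0%, against 9.82%) without overlap. Phosphoenolpyruvate carboxylase 3 (SORBI_3010G160700, chromosome 10, 47244445 to 47253575), the sorghum C4 form, had 18679, 17946 and 17472 CPM in the controls and 32085, 49737 and 24843 CPM in severe drought. The controls were close to each other and all severe drought libraries were above them, but these differed from each other by as much as from the controls, and the gene did not pass (log2 0.98 ± 0.60; edgeR adjusted p = 0.7). A pair of neighbouring chloroplast carbonic anhydrase genes was also higher in every severe drought library. SORBI_3003G234400 had 853, 610.4 and 1102 CPM and 1668, 3055 and 1283 CPM, and SORBI_3003G234200 had 4196, 3218 and 5844 CPM and 7024, 12352 and 6677 CPM; similar neighbours of this kind can share reads. Pyruvate, phosphate dikinase 1 (SORBI_3009G132900), with 19397, 19661 and 10165 CPM and 20181, 28154 and 17531 CPM, overlapped between the groups. So did the most abundant NADP-dependent malic enzyme gene (SORBI_3003G036200), with 2984, 3782 and 2373 CPM and 3409, 2957 and 2774 CPM and a log2 difference of 0.00 ± 0.40. A scarce malic enzyme gene (SORBI_3003G292400), matched to a bean enzyme, rose from 0, 0.203 and 0 CPM to 2.21, 5.405 and 1.18 CPM. Its log2 difference of 5.48 was 4.88 without control 1 and 4.88 without control 3, 4.69 without severe drought 2, and 9.50 without control 2, the single control with a count. This scarce gene is among the 4 counted above as higher. It passed the filter on low counts only through drought libraries, so it could hardly have come out lower.

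Of 66 tested photosystem and light-harvesting genes 58 had a log2 difference above 0 (48.0% of all genes did), with a median of 0.39. However, only 3 were higher (4.55%, against 7.64% of all genes) and 0 lower (0.0%, against 9.82%) without overlap, and DESeq2 called 0. Relative to the 6 libraries, the mean log2 level of the list was 0.391, 0.585 and -0.125 in severe drought 1, 2 and 3. In the controls it was -0.437, -0.609 and 0.195, so that severe drought 3 lay below control 3. An entry matched to the photosystem II protein CP47 (SORBI_3003G172200) had 113, 5.44 and 85.7 CPM and 161, 898 and 329 CPM; CP47 is encoded in chloroplast DNA, and a nuclear entry of this name can share reads with it, so its level is uncertain. The more abundant Rubisco small chain gene (SORBI_3005G042000) had 471, 393 and 1059.9 CPM and 1059, 778 and 289 CPM, again with control 3 high and severe drought 3 low, and a scarcer one (SORBI_3008G019100) had 19.4, 7.91 and 37.9 CPM and 52.7, 61.4 and 37.2 CPM. Chlorophyllase-1 (SORBI_3007G168000), which splits chlorophyll, had 14.3, 6.52 and 13.6 CPM and 58.7, 153 and 10.9 CPM, where severe drought 3 lay among the controls.

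Chloride channel protein CLC-a (SORBI_3010G214600, chromosome 10, 55745496 to 55749099), which in Arabidopsis loads nitrate into the vacuole, had 1.25, 2.94 and 2.74 CPM in the controls and 40.04, 29.8 and 218 CPM in severe drought. It rose 41.5-fold (log2 5.38 ± 1.27; DESeq2 adjusted p = 1.83e-05; edgeR 0.234 to 0.949), and severe drought 3 held the greater part of the mean. Without severe drought 3 the log2 difference was 3.92. A pair of genes near each other on chromosome 9 matched to NRT1/PTR FAMILY 3.1, of a family that carries nitrate, peptides and hormones, rose as well. SORBI_3009G136500 went from 0.9802, 1.62 and 1.33 CPM to 16.7, 16.8 and 6.902 CPM and SORBI_3009G136700 from 2.36, 1.45 and 0.731 CPM to 26.2, 29.7 and 4.54 CPM, with severe drought 3 lowest of the 3 in both. The high-affinity nitrate transporter 2.3 (SORBI_3003G270800) fell, from 1.99, 2.704 and 2.53 CPM to 0.238, 0.559 and 0.7395 CPM. Of 98 tested genes of nitrogen transport and assimilation 12 were higher (12.2%, against 7.64% of all genes) and 8 lower (8.16%, against 9.82%) without overlap. The same numbers of 100 were so before a correction of the name pattern.

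Lysine histidine transporter 1 (SORBI_3007G025800, chromosome 7, 2367174 to 2371549), which takes up amino acids into leaf cells, fell 3.24-fold, from 24.6, 41.03 and 29.7 CPM to 9.21, 7.45 and 12.7 CPM (DESeq2 adjusted p = 2.26e-05; edgeR 0.194 to 0.719). An asparagine synthetase (SORBI_3010G110000), which makes the nitrogen carrier asparagine, fell from 40.7, 53.6 and 41.8 CPM to 26.2, 27.1 and 25.3 CPM; the severe drought libraries were close together. Probable serine acetyltransferase 1 (SORBI_3003G279500), which starts cysteine synthesis, rose from 35.1, 31.7 and 44.2 CPM to 68.8, 94.1 and 101 CPM.

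Among 26 tested aquaporins, the water channels of membranes, 6 were higher (23.1%, against 7.64% of all genes) and 3 lower (11.5%, against 9.82%) without overlap. However, 15 of the 26 had a difference below 0, and the median was -0.19. DESeq2 called 0. PIP1-2 (SORBI_3004G288700) had 351, 288 and 464 CPM and 540.2, 635 and 835 CPM, and PIP2-4 (SORBI_3004G222000) 31.1, 21.5 and 22.9 CPM and 71.7, 45.1 and 75.9 CPM, each without overlap. Genes matched to PIP2-6 differed in direction. SORBI_3002G125000 had 25.3, 13.01 and 8.83 CPM and then 7.17, 6.66 and 2.37 CPM, while SORBI_3002G125700 had 7.76, 2.501 and 0.653 CPM and then 11.4, 17.1 and 32.2 CPM, and reads of such close relatives can be shared between them. Potassium transporter 1 (SORBI_3006G061300) fell, from 70.9, 84.5 and 7.18 CPM to 7.89, 6.62 and 6.06 CPM. The groups overlapped, since control 3 lay below severe drought 1, while the other controls were far above. Without control 3 the log2 difference was -3.50, and without control 2 it was -2.51. Protein ZINC INDUCED FACILITATOR 1 (SORBI_3003G131600), a vacuolar transporter in Arabidopsis, rose from 28.2, 27.4 and 26.9 CPM to 67.1, 57.7 and 74.1 CPM; the controls were close together. Actin-depolymerizing factor 5 (SORBI_3001G439700) rose from 23.2, 13.3 and 27.2 CPM to 47.4, 88.2 and 68.8 CPM. Of 14 tested guard cell markers 1 was higher (7.14%, against 7.64% of all genes) and 4 lower (28.6%, against 9.82%) without overlap. Of the 14, 6 had a difference above 0, and the list's mean level overlapped, with severe drought 1 at 0.135 and control 1 at 0.0743. Most were scarce, since 27 of the 35 markers in the list had a mean below 1 CPM. With the name pattern used before its correction, which also took in AKT channels, 3 were higher and 4 lower of 17. Among the lower members was the aluminum-activated malate transporter 12 (SORBI_3010G220700), an anion channel of stomatal closure in Arabidopsis, with 8.82, 10.1 and 7.47 CPM and 4.76, 2.05 and 1.43 CPM. In leaf RNA, fewer cells of a type and less RNA per cell cannot be told apart.

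In the list of wall-associated, cysteine-rich, leucine-rich repeat and Xa21-type receptor kinases, surface receptors that sense microbes or the state of the wall, 49 of 172 tested members were lower without overlap and 5 higher. That is 28.5% lower, against 9.82% of all genes, with a median log2 difference of -0.47. DESeq2 called 11 lower and 1 higher. The list's mean level, in which each member counts equally, lay at -0.450 to -0.164 in severe drought and at 0.170 to 0.533 in the controls, without overlap. The summed level did overlap, with 5307, 5791 and 5905 CPM in the controls and 7968, 5346 and 5075 CPM in severe drought. Since severe drought 1 lacked 61 genes, 2 of them in this list, the count was repeated without it: 61 of 172 members (35.5%) were then lower without overlap, against 15.7% of all genes. Without control 3 the shares were 44.8% and 17.5%, with 2 libraries left in that group. Leaving out a library can only keep or raise such counts, in the list and over all genes. These shares therefore cannot show whether the result rests on a single library.

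Among these was cysteine-rich receptor-like kinase 10 (SORBI_3002G329100, chromosome 2, 69826207 to 69829934), with 13.3, 18.6 and 21.2 CPM in the controls and 4.42, 4.29 and 5.72 CPM in severe drought. It fell 3.68-fold (log2 -1.88 ± 0.26; DESeq2 adjusted p = 3.31e-07; edgeR 0.187 to 0.685). A leucine-rich repeat kinase (SORBI_3002G176500) fell from 18.9, 20.04 and 54.5 CPM to 6.56, 6.66 and 5.72 CPM; control 3 was far above the other controls, but all 3 exceeded the drought libraries. Without control 3 its log2 difference was -1.62, against -2.30 with all libraries. A gene matched to rice Xa21 (SORBI_3006G030400), the receptor that gives resistance to bacterial blight, fell from 27.3, 30.995 and 24.4 CPM to 17.3, 10.9 and 15.7 CPM. Outside this list, a G-type lectin kinase (SORBI_3003G064901) fell from 7.42, 9.23 and 10.2 CPM to 2.58, 1.63 and 2.02 CPM, and the L-type lectin kinase matched to rice SIT2 (SORBI_3002G025700) from 19.8, 17.98 and 19.4 CPM to 8.09, 9.04 and 9.27 CPM, with SDs of 0.954 and 0.625 CPM in the groups.

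**Figure D3:**
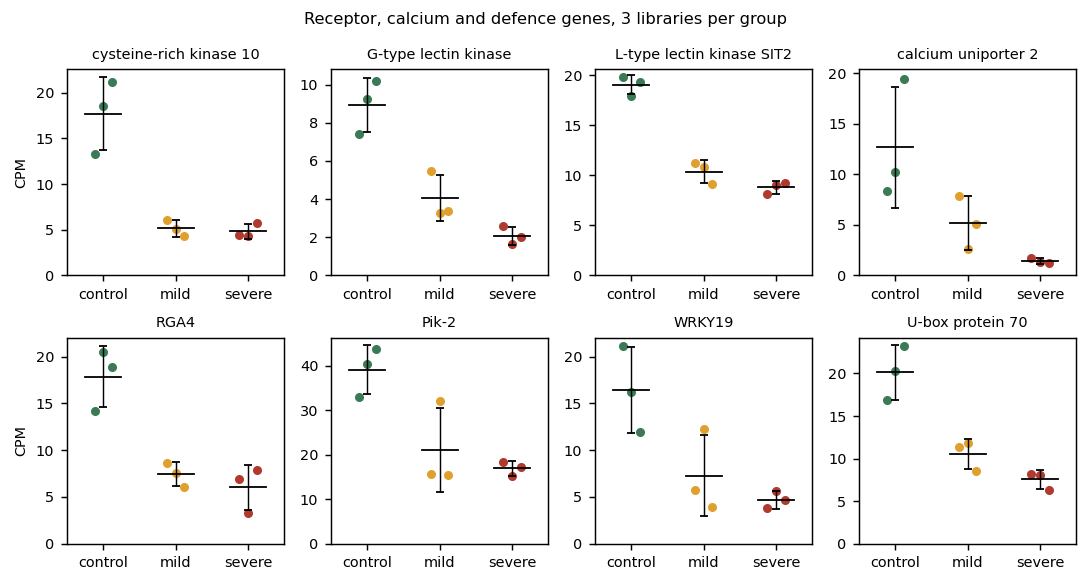
CPM (vertical axes, each from 0) of 8 receptor, calcium and defence genes in the control, mild and severe drought libraries, with points for libraries, long bars for means and error bars for SD (n = 3). The 8 genes were picked with their values known, some by a rule that required groups apart. In all 8 every severe drought library lies below every control, for instance 4.29 to 5.72 CPM against 13.3 to 21.2 CPM in cysteine-rich kinase 10.

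Inside the cell, NLR immune receptors, which detect pathogen proteins, were lower without overlap in 42 of 227 tested members (18.5%, against 9.82% of all genes). They were higher in 3 (1.32%, against 7.64%), with a median of -0.26. DESeq2 called 6 lower and 0 higher. A gene matched to rice RGA4 (SORBI_3002G393900) fell from 14.2, 20.4 and 18.9 CPM to 6.87, 3.31 and 7.89 CPM, a gene matched to RGA5 (SORBI_3007G006100) from 18.1, 20.7 and 20.8 CPM to 12.9, 12.9 and 12.6 CPM, and a gene matched to Pik-2 (SORBI_3003G154700) from 33.01, 40.5 and 43.8 CPM to 18.4, 15.2 and 17.2 CPM. Severe drought 3 stood apart here, for its mean level over the list was 0.0119, against -0.349 in both other drought libraries and 0.133 to 0.404 in the controls. NLR genes often lie in clusters of near copies, so reads can be split between neighbours. Without severe drought 1 the share lower was 33.0%, and without severe drought 2 it was 20.7%, against 15.7% and 13.5% of all genes. Here too, leaving out a library can only keep or raise the shares.

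Calcium is a messenger downstream of such receptors. Of 114 tested calmodulins, calcineurin B-like proteins and calcium-regulated kinases 28 were lower (24.6%, against 9.82% of all genes) and 7 higher (6.14%, against 7.64%) without overlap. The median was only -0.19. DESeq2 called 2 members of the list, both higher, of which CIPK6 is given above. Calcium uniporter protein 2 of mitochondria (SORBI_3001G449100, chromosome 1, 72630740 to 72632041), which is not in the list, fell 8.89-fold, from 8.32, 10.2 and 19.5 CPM to 1.73, 1.305 and 1.23 CPM (log2 -3.14 ± 0.50; DESeq2 adjusted p = 2.06e-06; edgeR 0.187 to 0.685). A calmodulin-binding receptor-like cytoplasmic kinase (SORBI_3006G138500) had 25.03, 29.6 and 20.8 CPM and then 13.5, 5.36 and 7.001 CPM and did not pass. U-box protein 70 (SORBI_3001G306000), of a class of ubiquitin ligases some of which tune immunity, fell from 16.9, 20.2 and 23.3 CPM to 8.23, 8.11 and 6.31 CPM. Of 348 ligases of RING and U-box type 41 were lower (11.8%) and 19 higher (5.46%), near the shares of all genes.

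Among WRKY factors, a plant family with roles in immunity, 18 of 68 were lower (26.5%, against 9.82% of all genes) and 1 higher (1.47%, against 7.64%) without overlap. Their median was -0.42, and 51 had a difference below 0. A gene matched to rice WRKY19 (SORBI_3002G174300, chromosome 2, 55188598 to 55190855) fell from 21.1, 16.2 and 11.96 CPM to 3.77, 5.64 and 4.63 CPM (log2 -1.81 ± 0.43), the single member that DESeq2 called. The mean level of the list lay at 0.187 to 0.514 in the controls and -0.356 to -0.237 in severe drought. In the synthesis and signalling of jasmonate, a defence hormone, 10 of 54 members were lower (18.5%, against 9.82% of all genes) without overlap. Another 3 were higher (5.56%, against 7.64%), and the median was -0.35. DESeq2 called 0 of the 54. Their summed level overlapped, with 2138, 2107 and 1849 CPM in the controls and 2368, 2677 and 2114 CPM in severe drought, so it was not lower as a whole. The 12-oxophytodienoate reductases, enzymes of the pathway's middle steps, included SORBI_3006G091700 with 20.2, 11.1 and 10.6 CPM and 4.15, 1.12 and 4.29 CPM and SORBI_3010G084700 with 6.15, 5.17 and 5.198 CPM and 1.77, 1.03 and 0.592 CPM. GH3.5 (SORBI_3003G224100), which joins jasmonate to isoleucine in rice, had 40.7, 50.3 and 33.4 CPM and 29.7, 21.9 and 24.8 CPM. In all 3 the groups did not overlap, and none passed. Of 86 auxin genes, by contrast, 3 were higher (3.49%) and 2 lower (2.33%) without overlap, below the shares of all genes (7.64% and 9.82%). The auxin-responsive protein IAA31 (SORBI_3002G055900) rose from 21.03, 20.8 and 30.6 CPM to 41.7, 75.9 and 59.01 CPM.

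**Figure D4:**
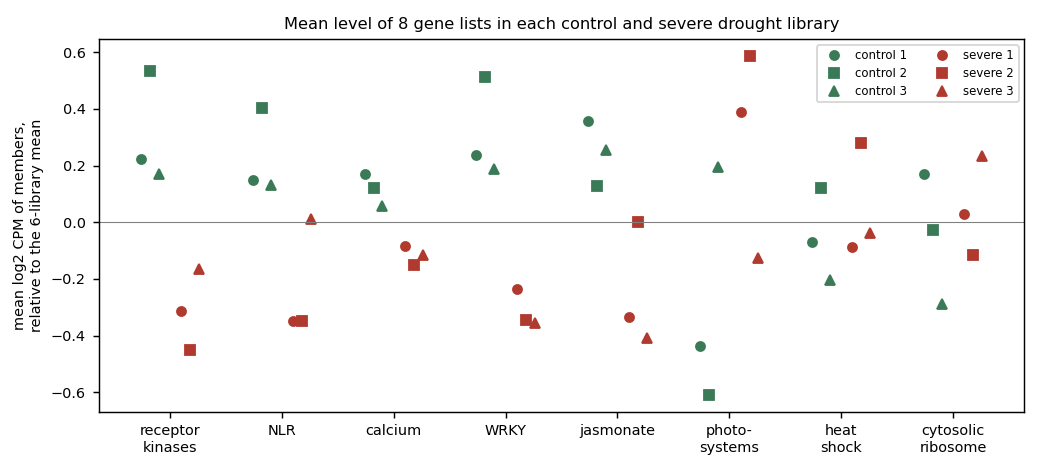
Mean log2 CPM of the tested members of 8 gene lists in each control (green) and severe drought (red) library, relative to the mean of the 6 libraries (vertical axis); circles, squares and triangles are libraries 1, 2 and 3. The first 5 lists lie lower in every severe drought library than in every control, while for photosystems, heat shock proteins and cytosolic ribosomal proteins the groups overlap. Members count equally in these means. The summed CPM of the receptor kinase, calcium and jasmonate lists overlap between the groups, while those of the NLR and WRKY lists are lower without overlap.

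Cytochrome P450 enzymes, oxygenases of hormones and defence compounds, were lower without overlap in 22 of 121 tested members (18.2%, against 9.82% of all genes). They were higher in 4 (3.31%, against 7.64%), with 4 called lower and 2 higher by DESeq2. Cytochrome P450 71A1 (SORBI_3009G196800, chromosome 9, 54738568 to 54741184), matched to an avocado enzyme, rose 4.92-fold, from 81.04, 68.8 and 125 CPM to 375, 543 and 436 CPM (DESeq2 adjusted p = 2.92e-09; edgeR 0.129 to 0.783). A gene matched to maize indole-2-monooxygenase (SORBI_3007G003400, chromosome 7, 315339 to 321801), an early step of benzoxazinoid synthesis in maize, rose 12.6-fold, from 6.07, 4.33 and 13.6 CPM to 65.9, 114 and 121 CPM (DESeq2 adjusted p = 1.16e-09; edgeR 0.104 to 0.868). In both genes the lowest severe drought library was several times the mean of the controls. For indole-2-monooxygenase the log2 difference was 3.65, and 4.27 without control 3, the highest control. P450 736A117 (SORBI_3002G273600) fell from 14.4, 15.9 and 16.8 CPM to 3.98, 4.33 and 4.83 CPM, and STRICTOSIDINE SYNTHASE-LIKE 10 (SORBI_3002G373100) from 73.2, 74.02 and 55.4 CPM to 20.2, 19.7 and 30.2 CPM. A gene matched to achilleol B synthase of rice (SORBI_3002G142300), a triterpene cyclase, rose from 1.96, 4.02 and 2.8995 CPM to 16.04, 13.5 and 38.9 CPM; lncRNA transcripts with the same identifier held 29.5% of its counts over the 6 libraries. Without severe drought 3 the log2 difference of this gene was 2.32, against 2.95.

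Further genes that fell had different roles. Lipid phosphate phosphatase 2 (SORBI_3009G221500, chromosome 9, 56464843 to 56469136), which removes the phosphate of the lipid signal phosphatidic acid, fell 7.85-fold, from 15.6, 12.1 and 6.92 CPM to 0.714, 1.77 and 1.92 CPM. ABC transporter B family member 11 (SORBI_3003G267300), a transporter related to auxin carriers, fell from 46.1, 38.6 and 33.6 CPM to 19.8, 17.2 and 18.4 CPM. The gene matched to onion alliin lyase (SORBI_3003G277800, chromosome 3, 61364457 to 61370278), an enzyme that cleaves sulfur-containing amino acids in onion, fell 3.78-fold, from 50.5, 61.7 and 48.2 CPM to 10.98, 13.98 and 17.5 CPM (DESeq2 adjusted p = 8.69e-07; edgeR 0.146 to 0.685). NAC87 (SORBI_3001G386000) fell from 67.9, 87.2 and 50.99 CPM to 25.3, 32.2 and 38.6 CPM, and the large subunit of ribonucleoside-diphosphate reductase (SORBI_3004G336100), which makes the building blocks of DNA, from 17.4, 15.6 and 13.4 CPM to 5.06, 2.38 and 7.35 CPM.

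Of 115 tested heat shock proteins, DnaJ chaperones and heat stress factors 22 were higher (19.1%, against 7.64% of all genes) and 8 lower (6.96%), though the median was 0.06. DESeq2 called 6 higher and 0 lower. The gene matched to HSFC2A of rice (SORBI_3004G101400), a heat stress factor, rose from 1.88, 1.89 and 1.202 CPM to 4.49, 8.48 and 16.2 CPM, and ClpB1 (SORBI_3009G201500, chromosome 9, 55096931 to 55101127), a chaperone that dissolves protein aggregates, from 27.6, 25.4 and 8.699 CPM to 48.2, 151 and 127 CPM. An HSP70 chaperone gene (SORBI_3003G350700) rose from 43.4, 41.7 and 20.3 CPM to 65.4, 112 and 91.7 CPM. Severe drought 1 was lowest of the drought libraries in all 3 genes and control 3 lowest of the controls. Over the whole list mean levels overlapped, with control 2 at 0.120 and severe drought 1 at -0.0876.

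The glutathione S-transferases GSTU6 (SORBI_3003G187000), with 27.3, 40.8 and 43.9 CPM and 129.7, 146 and 70.3 CPM, and GST3 (SORBI_3003G416300), with 98.7, 99.5 and 99.3 CPM and 147, 171 and 273 CPM, rose, while GST4 (SORBI_3009G043600), with 56.7, 41.7 and 35.03 CPM and 12.6, 25.3 and 17.4 CPM, fell. The 47 tested genes of the family had 6 higher (12.8%, against 7.64% of all genes) and 6 lower (12.8%, against 9.82%) without overlap. A chloroplast L-ascorbate peroxidase 8 (SORBI_3006G084400), which removes hydrogen peroxide, rose from 76.1, 67.2 and 46.6 CPM to 146, 269 and 115 CPM.

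In protein turnover, 8 of 49 genes of autophagy and vacuolar proteases were lower (16.3%, against 9.82% of all genes) and 2 higher (4.08%, against 7.64%) without overlap. DESeq2 called 3 of them lower. Cysteine proteinase 1 (SORBI_3004G142800, chromosome 4, 42416234 to 42419766), the abundant maize-type protease, fell 2.02-fold, from 1659, 1416 and 1761 CPM to 846, 808 and 739.9 CPM (DESeq2 adjusted p = 3.48e-08; edgeR 0.271 to 0.949). Autophagy-related protein 18b (SORBI_3004G327100) fell from 20.4, 19.7 and 19.3 CPM to 7.95, 10.7 and 10.6 CPM. Of the cytosolic ribosomal proteins, 156 of 215 had a difference above 0 (48.0% of all genes did), and the median was 0.13, with 0 called by DESeq2. Without overlap 20 were higher (9.3%, against 7.64% of all genes) and 2 lower (0.93%, against 9.82%). Ribosomal protein L15 (SORBI_3002G047600) had 95.4, 88.4 and 64.5 CPM and 119.8, 119 and 131 CPM. The median of the list moved between 0.02 (without control 3) and 0.26 (without control 1). Organelle ribosomal proteins had 73 of 94 above 0 and a median of 0.27, with 0 called by DESeq2. Only 5 were higher (5.32%, against 7.64% of all genes) and 1 lower (1.06%, against 9.82%) without overlap. Among the 5 was a chloroplast protein S10 gene (SORBI_3001G469933) with 12.6, 13.99 and 16.4 CPM and 25.1, 32.8 and 22.8 CPM. Of 27 clock and CONSTANS-like genes 7 were higher (25.9%, against 7.64% of all genes) and 0 lower (0.0%, against 9.82%) without overlap. Before a correction of the name pattern it was 7 and 1 of 30. An adagio-like light receptor gene (SORBI_3004G042200), among the 7, had 103, 128 and 104 CPM and 145, 165 and 147 CPM. The hour of sampling is not given in the labels.

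Long non-coding RNAs were sparser and more variable. The 6 libraries held 1253277 to 2902522 counts on them, and the biological coefficient of variation was 0.863, against 0.503 for genes. Of 4903 tested transcripts edgeR called 1 (0.0204%), with 233 at an unadjusted p under 0.05 (4.75%), of which 139 were higher (2.83%) and 94 lower (1.92%). DESeq2 called 14 higher (0.318%) and 15 lower (0.34%) of the 4409 to which it gave an adjusted p. Without overlap 349 were higher (7.12%) and 279 lower (5.69%). By the submitters' name classes, AS names had 71 of 1105 higher and 34 lower, LINC 196 of 2511 and 138, OT 62 of 908 and 80, and IT 19 of 373 and 27.

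The single transcript called by edgeR belonged to a locus with 3 lncRNA transcripts in the table, OT1, OT2 and OT3, of which OT3 was lower and OT2 higher in severe drought, while the CPM of OT1 overlapped between the groups. Transcript SORBI_3010G232200-OT3 (TCONS_00023113, chromosome 10, 57531766 to 57535282) had 362, 192 and 327 counts in the controls and 0 in each severe drought library. It was at least 198-fold lower, against a floor of 3 counts over the severe drought group (edgeR adjusted p = 0.0118, and 5.87e-06 to 0.22 over the settings tried). The edgeR call was lost without control 1 (adjusted p = 0.0827), control 2 (0.0616) or control 3 (0.0799), with the 6 libraries alone and with a replicate block, while DESeq2 called it (adjusted p = 3.41e-09). Transcript OT2 of the same gene (TCONS_00023111, chromosome 10, 57531727 to 57535299) had 5, 5 and 4 counts in the controls and 130, 352 and 286 in severe drought. Its difference was log2 6.39 ± 0.82, with an edgeR adjusted p of 0.0561 and a DESeq2 adjusted p of 6.66e-09 (edgeR 0.0008 to 0.456). Transcript OT1 (TCONS_00023109, chromosome 10, 57531706 to 57535408) had 175, 227 and 220 counts in the controls and 81, 152 and 139 in severe drought, which is 4.64, 7.67 and 5.75 CPM and then 2.75, 7.08 and 6.85 CPM. The gene has no protein name in the deposited table, and its total count was not called, with 911, 706 and 981 counts in the controls and 392, 716 and 568 in severe drought (adjusted p = 0.995 in edgeR). Added together, OT2 and OT3 gave 6.659 to 9.722 CPM in the controls and 4.419 to 16.401 CPM in severe drought. The starts of OT2 and OT3 differ by 39 bases and their ends by 17, and OT1 spans both. The splicing inside is not given in the tables, so how reads were shared among the 3 is uncertain.

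**Figure D5:**
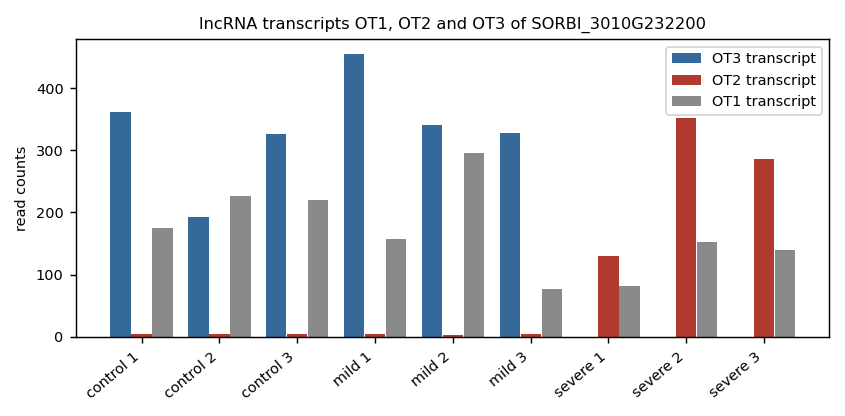
Read counts (vertical axis, from 0) of the lncRNA transcripts OT3 (blue), OT2 (red) and OT1 (grey) of SORBI_3010G232200 in the 9 libraries. OT3 has 192 to 456 counts in control and mild drought and 0 in severe drought, where OT2 has 130 to 352 counts against at most 5 elsewhere; OT1 has 77 to 296 counts, with counts in every library.

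Among the 14 named lncRNA transcripts 11 passed DESeq2, which called 0.265% higher and 0.306% lower of all 4903 tested. The 14 were picked by their values in these same data, so a high share was built into the choice. LINC5130 and LINC5131, transcripts listed with the same start and end on chromosome 6 (34406933 to 34411105), had 20, 27 and 30 counts in the controls and 259, 123 and 60 in severe drought, and 48, 32 and 56 and then 688, 248 and 107. Both rose, and severe drought 1 was highest in each; without it the log2 difference of LINC5131 was 2.72 in place of 3.39. Transcript SORBI_3008G069700-AS3 (TCONS_00082214, chromosome 8, 8436514 to 8437963), named after a clathrin assembly gene, had 0, 2 and 1 counts and then 65, 46 and 56, and rose (6.14 on the log2 scale, and 7.12 without control 2). SORBI_3002G142300-IT3 (TCONS_00031550, chromosome 2, 23298258 to 23300316), which lies within the achilleol B synthase gene above, rose with 8, 19 and 13 counts and then 58, 50 and 146 (log2 3.26, and 2.43 without severe drought 3). SORBI_3008G030801-OT1 (TCONS_00081714), named for a gene matched to a non-specific lipid-transfer protein, had 24.4, 47.1 and 48.8 CPM in the controls and 127, 266 and 254 CPM in severe drought, without overlap, and did not pass. It held nearly all counts of its gene, 921 of 921 in control 1 and 3743 of 3743 in severe drought 1, so both describe the same reads; tested as a gene among genes, DESeq2 called it higher (adjusted p = 0.00044; edgeR 0.12 to 0.934).

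SORBI_3006G044301-OT2 (TCONS_00070828, chromosome 6, 30806276 to 30816152) had 80, 20 and 156 counts in the controls and 0 in all severe drought libraries, at least 57.5-fold lower; its whole gene had no count in severe drought 1 but 516 and 451 counts in severe drought 2 and 3. SORBI_3005G208275-OT5 (TCONS_00062492) had 69, 226 and 110 counts and LINC3273 (TCONS_00049432) 58, 53 and 182 counts in the controls, and both had 0 in severe drought and at most 9 in a mild drought library. They were at least 90.96-fold and 65.8-fold lower against the same floor. In these 3 the fitted log2 differences, which depend on the prior count, moved from -9.14 to -8.39 without control 3 for SORBI_3006G044301-OT2, from -9.98 to -9.18 without control 2 for SORBI_3005G208275-OT5, and from -9.38 to -8.63 without control 3 for LINC3273. SORBI_3002G162500-OT1 (TCONS_00026064) fell from 49, 327 and 20 counts to 5, 3 and 1, where control 2 held most of the control counts; without it the log2 difference was -2.86 in place of -5.09. SORBI_3010G094000-OT2 (TCONS_00016951) was abundant, with 356, 185 and 321 CPM and then 74.1, 125 and 121 CPM, without overlap, and did not pass. LncRNA transcripts of its gene held 94.0% of that gene's counts; tested as a gene among genes, DESeq2 called it lower (log2 -1.40, adjusted p = 0.0169; edgeR 0.295 to 0.949).

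In mild drought P5CS2 had 149, 127 and 400.4 CPM, DHN1 15.3, 42.2 and 37.4 CPM and PYL4 3.91, 3.304 and 8.84 CPM. Tested directly in the same fit, severe against mild drought gave 0 genes in edgeR (0.0%; 815 at an unadjusted p under 0.05, 3.69%) and 16 in DESeq2, 14 of them lower. Alliin lyase was among these, with 61.96, 69.2 and 37.9 CPM in mild drought (DESeq2 adjusted p = 1.95e-06 for severe against mild). Calcium uniporter protein 2, with 7.88, 2.59 and 5.08 CPM in mild drought, lipid phosphate phosphatase 2, with 4.73, 6.58 and 5.48 CPM, and laccase-10, with 1.01, 5.15 and 2.36 CPM, lay between the groups on average, and their differences from severe drought did not pass. OT3 and OT2 of SORBI_3010G232200 kept the order of the controls in mild drought, OT3 with 456, 341 and 328 counts and OT2 with 5, 2 and 5.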

How the data were processed

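Per the file headers, the authors deposited read counts per gene and per lncRNA transcript, and FPKM values for both, in separate tables with 1 column per library. StringTie 1.3.3b, HISAT2 2.0.4 and STAR are the tools listed in the submitters' processing notes, with no role for each and no genome build. Counts were whole numbers and carried all tests; the deposited FPKM table only chose the genes. In 661 genes lncRNA transcripts with the same identifier held over 50% of the counts.

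All 9 libraries entered 1 edgeR 4.0.16 fit (R 4.3.3; filterByExpr, TMM, quasi-likelihood F test, Benjamini-Hochberg), with the contrast of severe drought minus control and no covariate; lncRNA transcripts used the library sizes of the gene table. SEs are the log2 difference divided by the square root of F. DESeq2 1.42.0 was an alternative, as were other size factors, no filter, the 6 libraries alone, a replicate block and leaving out each library. Scripts were tested on simulated data at 2 dispersions, the lower added after the outcome at the higher was known. Depth was 27854146 to 41228478 counts per library, and floors cover counting error only.

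The members, the 46 gene lists (searched in the protein names that 20947 genes had) and the rule for named genes were chosen with earlier results of these data known. The rule took up to 12 genes per direction, called or else with groups apart, a mean of at least 5 CPM and the smallest p. It also took up to 3 members per list, fixed drought, C4 and transport genes, and up to 6 lncRNA transcripts per direction with at least 1 CPM. Pectinesterase inhibitor 10 and 2 late embryogenesis abundant proteins were added outside the rule after their values were seen, and with them there were 213 genes. Of these 100 are described, 97 of them given by the rule and picked with their values known. The name patterns of the clock, nitrogen and guard cell lists were corrected after their members' differences had been seen, because they matched unrelated proteins or, for guard cells, a broader channel family; the earlier counts are given. Lists are described by counts and medians, with no test of a list. No sequences were used.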

Additional observations from a re-analysis of the deposited data

Results flagged for a closer look

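Severe drought differed from mild drought, by the test of that difference in the edgeR fit, in 4 of the 4903 lncRNA transcripts tested. At SORBI_3010G232200 the severe minus mild log2 difference was -11.5 for OT3 (TCONS_00023113, adjusted p = 0.00903) and 6.43 for OT2 (TCONS_00023111, adjusted p = 0.028). For SORBI_3002G094800-OT3 (TCONS_00024945, chromosome 2, 9826750 to 9828843) it was -9.37 (adjusted p = 0.028), with 37, 38 and 73 counts in the controls, 93, 102 and 69 in mild drought and 0 in each severe drought library. For SORBI_3K044411-OT4 (TCONS_00095547) it was -10.0 (adjusted p = 0.028), with 576, 517 and 588 counts in mild drought, 1, 0 and 0 in severe drought and 0, 0 and 2 in the controls, so that it was abundant in mild drought and near 0 in both other groups. Fitted log2 values against a group at 0 depend on the prior count and are no bound on the fold. All 4 are overlapping or alternative transcripts of a gene whose total was not called, and how reads were shared between transcripts was not tested.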

How the results depend on the processing

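For genes, edgeR called 0 in severe drought against control with other size factors, without the filter and without each library in turn (0 to 0), 2 with the 6 libraries alone, and DESeq2 called 314. For lncRNA transcripts, against 1 in the main test, edgeR called 26 without the filter and 0 with the 6 libraries alone, and 0 to 4 without each library in turn (0 without control 1, 2 or 3, and 4 without severe drought 1), while DESeq2 called 29. Severe against mild drought gave 16 genes with DESeq2, and for lncRNA transcripts 18 with DESeq2 and 1 to 6 without each severe drought library; the latter alternatives were chosen after seeing the data. The cause of these differences was not tested.

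The labels do not say whether equal replicate numbers mark a pairing, and with 3 libraries per group the following correlations cannot decide it. Deviations of same-numbered control and severe drought libraries correlated at -0.271 to 0.00414 over 3 pairs, and 0 of 6 libraries correlated best with their own number. Same-numbered libraries of mild drought correlated at -0.374 to 0.371 with control and at -0.00715 to 0.264 with severe drought. The unlike-numbered control 3 and mild drought 2 reached 0.551. A fit with the replicate number as a block called 0 genes (1603 at an unadjusted p under 0.05) and 0 lncRNA transcripts.

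Of 100 named genes 95 kept the sign of their difference under every alternative, and 2 had an adjusted p under 0.05 in an edgeR setting. The other 5, and a transcript, changed sign. Many of the 100 were picked for a small p or for groups apart, where leaving out a library can hardly change the sign. The count of 95 was therefore largely set by the choice of genes and does not measure how stable the results are. SORBI_3004G268500 (NCED1) stood at -0.00658 with the block, and from -0.288 (without control 3) to 0.589 (without control 2) as each library was left out, with -0.138 without severe drought 3. SORBI_3003G036200 (malic enzyme) stood at -0.0123 with the block, -0.0125, -0.147 and -0.087 without control 1, control 3 and severe drought 1 (up to 0.188 without control 2), and -0.000428 in DESeq2. SORBI_3005G042000 (Rubisco small chain) stood at -0.0363, -0.104 and -0.265 without control 1, control 2 and severe drought 1 (up to 0.718 without control 3). TCONS_00095547 against control stood at 2.07, 0.0515 and 0.0311 without control 3, severe drought 2 and severe drought 3 (down to -2.48 without severe drought 1). SORBI_3006G201400 stood at 0.329 without control 3 (down to -0.552 without control 2), and SORBI_3009G247900 at 0.0113 without control 3 and 0.0521 without severe drought 1 (down to -0.152 without severe drought 2). DESeq2 was run with all 9 libraries, so its calls were not repeated without each library. The median of 16 of 47 lists (all genes included) moved under at least 1 alternative. The biological coefficient of variation between libraries was 0.503 for genes and 0.863 for lncRNA transcripts.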
